A study of Homo sapiens with 8 samples.

Results

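EXOC8 and SPRTN are neighbouring human genes on chromosome 1 that RefSeq (GRCh38.p14) places back to back, EXOC8 on the minus strand and SPRTN on the plus strand. Their promoter windows are 2 of the 19957 windows counted in an OGAP-seq experiment. EXOC8 was chosen by its read counts, since its window stood far above input DNA in the pull-down of both cell states, and SPRTN was chosen by its position beside it. OGAP-seq sequences DNA fragments that were pulled down because they carry oxidative base damage. It was run on RPE1 cells, a telomerase-immortalised cell line from the human retinal pigment epithelium. KD cells were depleted of NuMA (also called TDIF), a nuclear and spindle-pole protein, and were taken post-doxycycline. WT cells had the wild type genotype and received no doxycycline, so depletion and doxycycline cannot be told apart. The groups were KD OGAP, KD input, WT OGAP and WT input, with 2 libraries each and 8 in all, where input is genomic DNA that was not pulled down. No label ties the 2 libraries of a group to different cultures, so the spread between libraries may be technical. The p-values rest on that spread taken largely from all windows together, and little on a window's own libraries.

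EXOC8 encodes the Exo84 subunit of the exocyst, the complex that tethers secretory vesicles to the plasma membrane before they fuse. Its subunit is a binding partner of the RAL GTPases, which switch the complex on. SPRTN encodes a replication-coupled metalloprotease that cuts proteins crosslinked to DNA and that is recruited by the sliding clamp PCNA. Genes that start close together on opposite strands often share a promoter region between their starts.

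Promoter windows took 368593 to 771138 reads per library, and the median window held 17 to 28 reads in OGAP libraries and 33 to 38 in inputs. Mitochondrial windows took 2.03% to 3.0% of these reads. CPM values are counts scaled to library size after TMM, which sets libraries level at the typical window. WT input replicate 1 stood apart from the other 3 inputs at the EXOC8 window, and results that rest on it are given with and without it.

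The windows of both genes overlapped, and their geometry decides which reads were counted. Each window spans 2001 bp around a gene start as the authors' table has it, in hg38. The EXOC8 window (ENSG00000116903) covers chr1:231336853-231338853 on the minus strand, and its centre lies 1 bp from the RefSeq start of EXOC8. The plus-strand window beside it (ENSG00000010072) covers chr1:231336103-231338103. Its centre lies 1190 bp from the RefSeq start of SPRTN and 749 bp inside the RefSeq EXOC8 gene. No other plus-strand window lies closer to the SPRTN start, and no other plus-strand protein-coding gene with a RefSeq strand starts closer to this window. It is called the SPRTN window here, although the table gives no symbol and the centre is outside the 500 bp that were used to name windows.

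The windows shared 1251 bp (chr1:231336853-231338103). That left each with an unshared stretch of 750 bp. All 151 windows that were wholly covered by other windows held 0 reads in every library, so reads in a shared stretch went uncounted. Median input reads, summed over 4 libraries, were 5 for windows with up to 250 unshared bp, 24 for those above that and up to 500 bp, 59 for 700 to 800 bp and 161 for windows with no overlap. Reads filed under EXOC8 therefore come from chr1:231338104-231338853, which starts 252 bp upstream of the EXOC8 start. This stretch holds the RefSeq start of SPRTN (231338293) and the first 561 bp of the SPRTN gene. Reads filed under SPRTN come from chr1:231336103-231336852, inside the EXOC8 gene. The deposited table gives no position of a read within its window.

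The bases upstream of both RefSeq starts are shown because the border of the counted stretch falls between them. Each sequence is RefSeq's (GRCh38.p14), read 5′ to 3′ on the strand of its gene, and capitals mark bases in the stretch counted for the EXOC8 window. The EXOC8 sequence is chr1:231337853-231338102 on the minus strand and the SPRTN sequence is chr1:231338043-231338292 on the plus strand.
EXOC8: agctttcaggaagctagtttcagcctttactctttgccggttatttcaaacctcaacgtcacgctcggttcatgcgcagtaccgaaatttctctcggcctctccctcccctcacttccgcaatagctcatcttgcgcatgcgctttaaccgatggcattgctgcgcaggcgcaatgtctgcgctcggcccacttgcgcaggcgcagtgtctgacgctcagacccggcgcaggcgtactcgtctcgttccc
SPRTN: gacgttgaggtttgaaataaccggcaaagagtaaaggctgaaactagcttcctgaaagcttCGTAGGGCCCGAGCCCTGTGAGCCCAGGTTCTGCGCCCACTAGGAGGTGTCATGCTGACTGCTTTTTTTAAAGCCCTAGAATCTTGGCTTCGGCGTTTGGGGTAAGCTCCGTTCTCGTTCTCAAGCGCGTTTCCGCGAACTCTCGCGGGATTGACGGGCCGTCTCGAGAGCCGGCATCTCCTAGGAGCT
None of the 250 bases before EXOC8 lay in the counted stretch, whereas 189 of the 250 bases before SPRTN did. The sequences overlap by 60 bases on opposite strands, and the RefSeq starts are 441 bp apart.

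Both upstream sequences held fewer runs of G than most human promoters. The GC content was 57.2% before EXOC8 and 55.2% before SPRTN, against a median of 62.0% over the 250 bases before 22197 protein-coding genes. The CG dinucleotide occurred 23 times before EXOC8 and 19 times before SPRTN, against a median of 16. GGGG, searched on both strands with overlapping matches counted, occurred 1 time in each, against a median of 5, and 91.9% of all promoters held it. A GC box (GGGCGG) was in neither sequence on either strand, and 53.7% of all promoters held it. The same was true of a CCAAT box, spelled by its name and held by 32.7%, and of a TATA box (TATAAA), held by 9.01%. It was also true of CCGGAAG, an extended form of the ETS motif, held by 10.7%. Shorter or other forms of that motif were not searched. GGGG and the GC box can overlap in a promoter, and each was counted on its own.

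**Figure D1:**
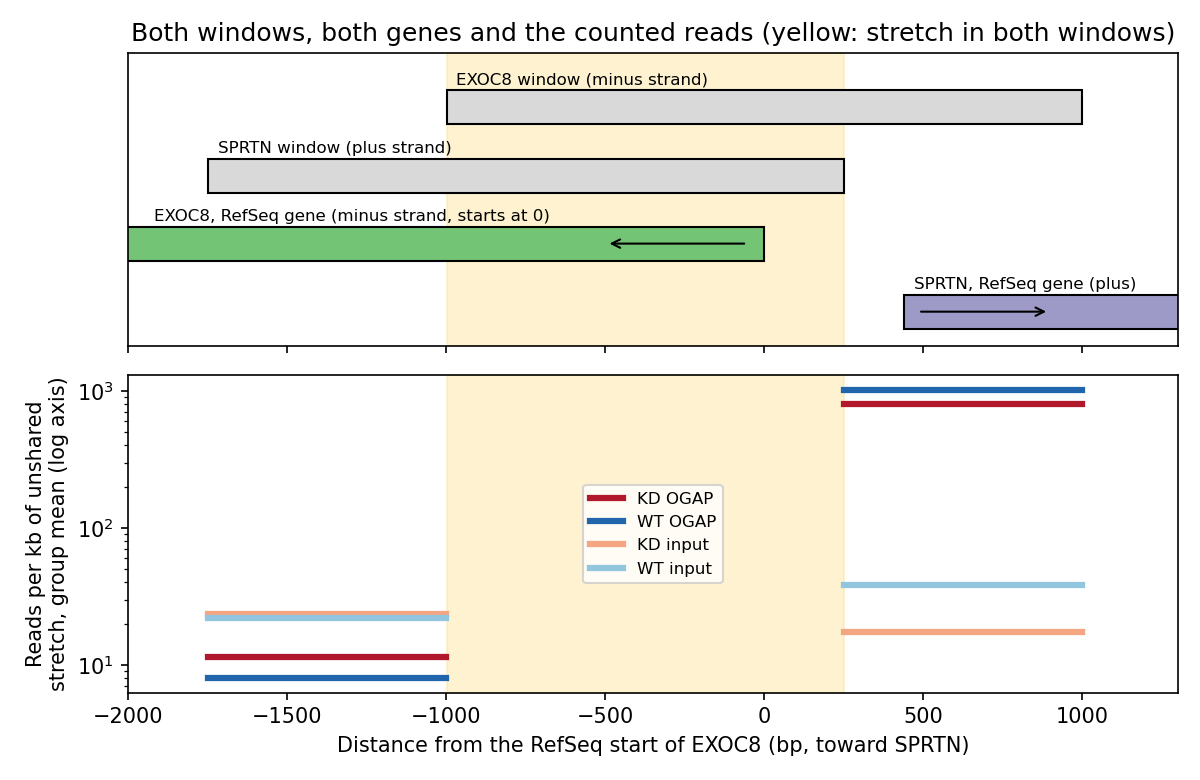
Upper part: both windows and both RefSeq genes by distance in bp from the RefSeq start of EXOC8, with yellow for the 1251 bp in both windows. Lower part: mean reads per kb of each unshared stretch (log axis) in 4 groups of 2 libraries, not scaled for depth. Of both unshared stretches of 750 bp, only that with the SPRTN start has high OGAP reads. Reads in the shared stretch were not counted.

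The EXOC8 window held 688 and 525 reads in KD OGAP and 832 and 694 in WT OGAP, against 13 and 13 in KD input and 42 and 15 in WT input. Every OGAP library was far above every input, which is a description, since these reads chose the gene. In CPM it averaged 1212 ± 38.6 in KD OGAP and 19.3 ± 0.763 in KD input (SD, n = 2 each). In WT it averaged 2098 ± 374 in OGAP and 38.2 ± 26.5 in input (SD, n = 2 each). The wide spread in WT input came from replicate 1, at 57.0 CPM, where the other 3 inputs lay at 18.7 to 19.8 CPM. The exact 95% Poisson interval was 30.3 to 56.8 reads for the 42 reads of WT input replicate 1, and 8.4 to 24.7 for the 15 reads of replicate 2. Intervals cover counting error only, since PCR copies are not independent molecules.

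OGAP over input was higher by 5.96 ± 0.29 on the log2 scale in KD and by 5.78 ± 0.27 in WT (± SE of the edgeR fit), and 0 of 17130 tested windows had a higher log2 change in either state. These values chose the gene and are a description without a test. Across all windows 0.63% were called higher in KD (0.736% in either direction) and 9.25% in WT (13.7% in either direction). Without WT input replicate 1 the WT value was 6.72, and without WT input replicate 2 it was 5.19. A log2 change above 4 in both states was found for 2 windows, EXOC8 and USP11.

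**Figure D2:**
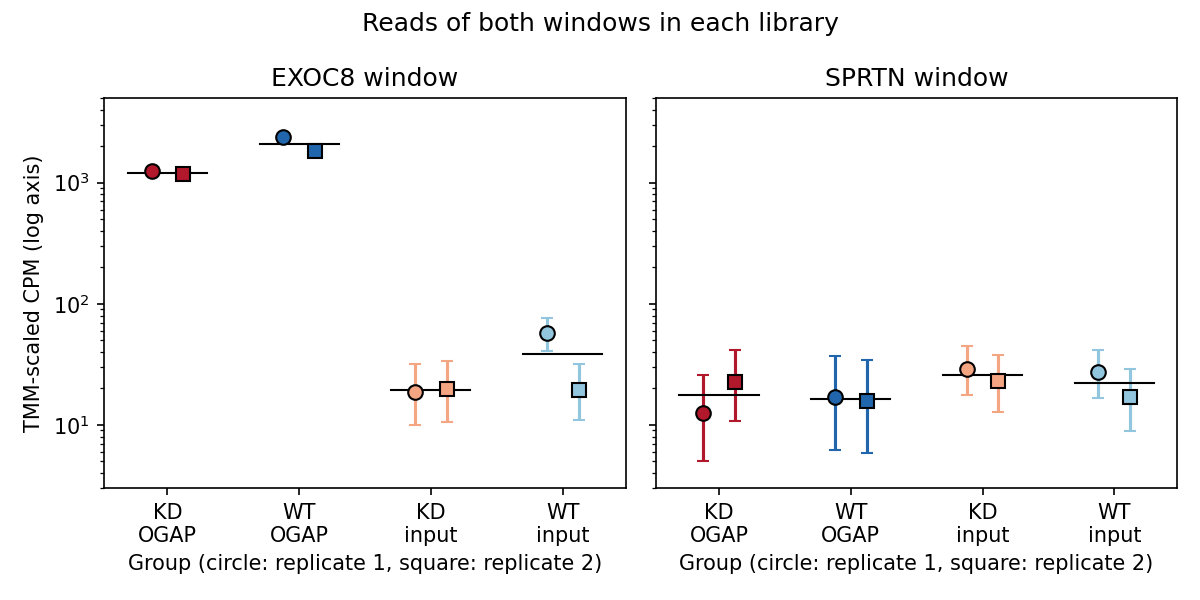
TMM-scaled CPM (log axis) of the EXOC8 and SPRTN windows in each library, with group means as lines and exact 95% Poisson intervals of the counts as bars. EXOC8 lies above 1000 CPM in all 4 OGAP libraries and below 60 CPM in all inputs, and SPRTN lies between 12.6 and 28.8 CPM throughout.

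The EXOC8 window took 0.123% and 0.117% of the promoter reads of the KD OGAP libraries and 0.226% and 0.175% of those of WT OGAP. Its exact 95% binomial intervals were 0.114% to 0.132% and 0.107% to 0.127% in KD OGAP, and 0.211% to 0.242% and 0.162% to 0.188% in WT OGAP. The shares were lower in KD OGAP than in WT OGAP, in libraries that also served to choose the gene. Of 17130 tested windows, 857 (5.0%) had a lower log2 change of KD against WT in OGAP than EXOC8. How many windows separated KD from WT by each library was not counted. In input the EXOC8 window took 0.0019% and 0.00201% in KD and 0.00577% and 0.00195% in WT. By reads it ranked sixth of 19957 windows in all 4 OGAP libraries, after 4 mitochondrial windows and USP11. In inputs it ranked 16393 and 16345 in KD, and 7622 and 16040 in WT.

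Per unshared base, EXOC8 was the densest nuclear window of the pull-down. It held 917 and 700 reads per kb of its unshared stretch in KD OGAP and 1109 and 925 in WT OGAP. It ranked seventh of 19806 windows with an unshared base in each of these libraries, after 6 mitochondrial windows. USP11, a deubiquitinase gene on chromosome X whose window overlaps no other, had more reads in total, and EXOC8 held 0.695 and 0.690 of its reads in KD OGAP and 0.622 and 0.660 in WT OGAP. The next nuclear window by reads, DBF4B, was exceeded by EXOC8 4.56 and 1.94 times in KD OGAP and 4.65 and 3.14 times in WT OGAP.

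Windows with a like unshared length did not come near EXOC8 in the pull-down. EXOC8 was chosen by its pull-down reads, so its OGAP rank among these windows is a description. Of 109 windows with 700 to 800 unshared bp, EXOC8 had the most OGAP reads (2739, summed over 4 libraries) and DDA1 the next (98), with a median of 38. In input EXOC8 was 19th of these windows, with 83 reads against a median of 59, of which 42 came from WT input replicate 1. Without that library it was 56th, with 41 reads against a median of 43. SPRTN was 74th in OGAP (29 reads) and 37th in input (68 reads). EXOC8 thus stood at 72.1 times the class median in OGAP and 1.41 times in input (0.953 times without WT input replicate 1).

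**Figure D3:**
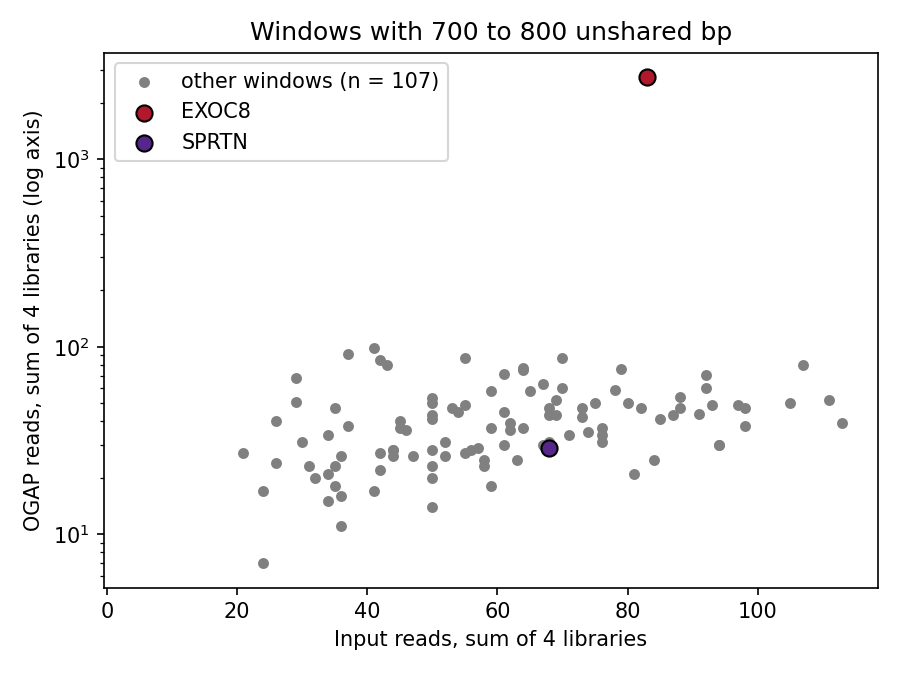
OGAP reads (log axis) against input reads, each summed over 4 libraries, for the 109 windows with 700 to 800 unshared bp. EXOC8 sits at 2739 OGAP reads above the other windows, which reach 98, and SPRTN sits among them.

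The SPRTN window showed none of this excess. It held 7 and 10 reads in KD OGAP and 6 and 6 in WT OGAP, against 20 and 15 in KD input and 20 and 13 in WT input. Raw OGAP counts lay below raw input counts in both states. Scaled to CPM, the KD groups came close, with 12.6 and 22.6 in OGAP against 28.8 and 22.9 in input, and the WT groups overlapped, with 17.04 and 15.9 in OGAP against 27.1 and 16.9 in input. The KD mean was 17.6 ± 7.04 CPM in OGAP and 25.8 ± 4.21 CPM in input, and the WT mean was 16.4 ± 0.841 CPM in OGAP and 22.0 ± 7.26 CPM in input (SD, n = 2 each). OGAP over input was -0.58 ± 0.60 in KD (adjusted p = 0.749, edgeR) and -0.41 ± 0.65 in WT (adjusted p = 0.717). The approximate 95% intervals from the SE ran from -1.76 to 0.60 in KD and from -1.69 to 0.86 in WT. Both include 0, so the sign of a change was not resolved at this depth. Both values stayed below 0 without any single library, between -1.03 and -0.20 in KD and between -0.72 and -0.05 in WT.

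Reads of the pair divided very unequally in the pull-down and about evenly in input, although both unshared stretches have the same length. EXOC8 took 99.0% and 98.1% of the reads of both windows in KD OGAP and 99.3% and 99.1% in WT OGAP. In input its share was 39.4% and 46.4% in KD and 67.7% and 53.6% in WT. The exact 95% binomial intervals of the shares included 50% in KD input and in WT input replicate 2 and excluded it in WT input replicate 1, at 54.7% to 79.1%. Summed over 4 libraries, EXOC8 had 94.4 times the reads of SPRTN in OGAP and 1.22 times in input. Without WT input replicate 1 the input ratio was 0.854, with 41 reads for EXOC8 and 48 for SPRTN, and the exact 95% interval of the EXOC8 share, 35.4% to 57.0%, included 50%.

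Opposite-strand neighbours rarely differed this much in OGAP, where EXOC8 was chosen for its high reads, so its rank here is a description. Of 1323 pairs of opposite-strand windows with centres within 1000 bp, 236 had a mean of at least 10 reads in either window. In 216 of these the unshared lengths of the partners agreed within 10 bp. EXOC8 and SPRTN had the highest OGAP ratio of these, at 6.54 on the log2 scale (0.5 reads added to each window), against 2.62 for the next pair and a median of 0.58 over the others. Their input ratio was 0.29 on the same scale, and -0.22 without WT input replicate 1. Over all 236 pairs they ranked 10. In all 9 pairs ahead 1 window had no unshared base and 0 reads, such as RHNO1 with FOXM1, PRORP with PPP2R3C, and ENSG00000273154 with ARFRP1.

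Between the cell states, no difference at the EXOC8 window passed the threshold over all libraries. In OGAP it was 1239.7 and 1185 CPM in KD against 2363 and 1834 CPM in WT. The log2 change was -0.79 ± 0.20 (adjusted p = 0.130, edgeR), in a comparison where 0.0175% of windows were called lower and 0.035% in either direction. These libraries also served to choose the gene, so this is not independent of the choice. The change passed without WT input replicate 2 (-0.82, adjusted p = 0.0432) and in a fit of the 4 OGAP libraries alone (-0.79, adjusted p = 0.0436); over all alternatives the adjusted p ran from 0.0432 to 0.42. In input EXOC8 was at 18.7 and 19.8 CPM in KD against 57.0 and 19.5 CPM in WT. The groups overlapped, and the change was -0.97 ± 0.37 (adjusted p = 0.999, where 0% of windows were called). Without WT input replicate 1 it was -0.02, and without WT input replicate 2 it was -1.55.

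The KD effect on OGAP over input, the test of a difference between the states, was 0.18 ± 0.41 for EXOC8 (adjusted p = 0.940, edgeR; 0.00584% of windows called higher). The approximate 95% interval from this SE ran from -0.62 to 0.98. DESeq2 gave a larger SE, at 0.17 ± 0.72. The effect became -0.77 without WT input replicate 1, which is outside that interval, and 0.73 without WT input replicate 2. The sign of the effect thus rested on which WT input library was used.

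For SPRTN the KD and WT libraries could not be separated. The log2 change of KD against WT was 0.07 ± 0.71 in OGAP (adjusted p = 0.982, edgeR), with an approximate 95% interval from -1.32 to 1.45. In input it was 0.24 ± 0.55 (adjusted p = 0.999), from -0.83 to 1.31. The KD effect on OGAP over input was -0.17 ± 0.90 (adjusted p = 0.976), from -1.92 to 1.59. The sign changed in OGAP without KD OGAP replicate 2 (-0.37) and in input without WT input replicate 2 (-0.07). The effect on OGAP over input changed sign without WT input replicate 2 (0.11), KD OGAP replicate 1 (0.22) or KD input replicate 1 (0.01).

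No other tested window within 1 Mb came near the excess at EXOC8. Only promoter windows were counted, so how far the excess reaches between windows is unknown. Within 1 Mb there were 15 other windows, of which 9 passed the count filter, and the most OGAP reads in any of them was 125, summed over 4 libraries. Their log2 OGAP over input ranged from -0.63 to 1.12 in KD (median -0.05) and from -1.26 to 1.12 in WT (median -0.39). None passed in KD with edgeR (1 at an unadjusted p under 0.05), where 0.736% of all tested windows passed and 12.6% had such an unadjusted p. In WT 2 of 9 passed (3 at an unadjusted p under 0.05), where 13.7% of all tested windows passed in either direction and 28.5% had such an unadjusted p. Distances below 0 lie on the side away from the SPRTN gene, although the centre of the SPRTN window itself is at -0.75 kb. In WT, C1orf198, at -468 kb, rose by 1.12 ± 0.37 (adjusted p = 0.0304, edgeR) and FAM89A, at -298 kb, fell by 1.26 on the log2 scale (± 0.40, adjusted p = 0.0249).

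The nearest tested window on the side of the SPRTN gene (ENSG00000135766, 87.2 kb away) had 9 and 8 reads in KD OGAP and 6 and 6 in WT OGAP, against 25 and 11 in KD input and 27 and 11 in WT input. The nearest named windows to the other side were those of GNPAT and FSAF1, at -96.6 and -96.7 kb, which overlap all but 18 bp of each other. They held 2 and 0 reads over all libraries and were not tested. TRIM67, at -176 kb, was at 0.10 ± 0.34 in KD and -0.55 ± 0.37 in WT. On the side of the SPRTN gene, 2 windows at the TSNAX start coincide and held 0 reads, and DISC1, at 289 kb, was at -0.05 ± 0.38 in KD and -0.89 ± 0.42 in WT.

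**Figure D4:**
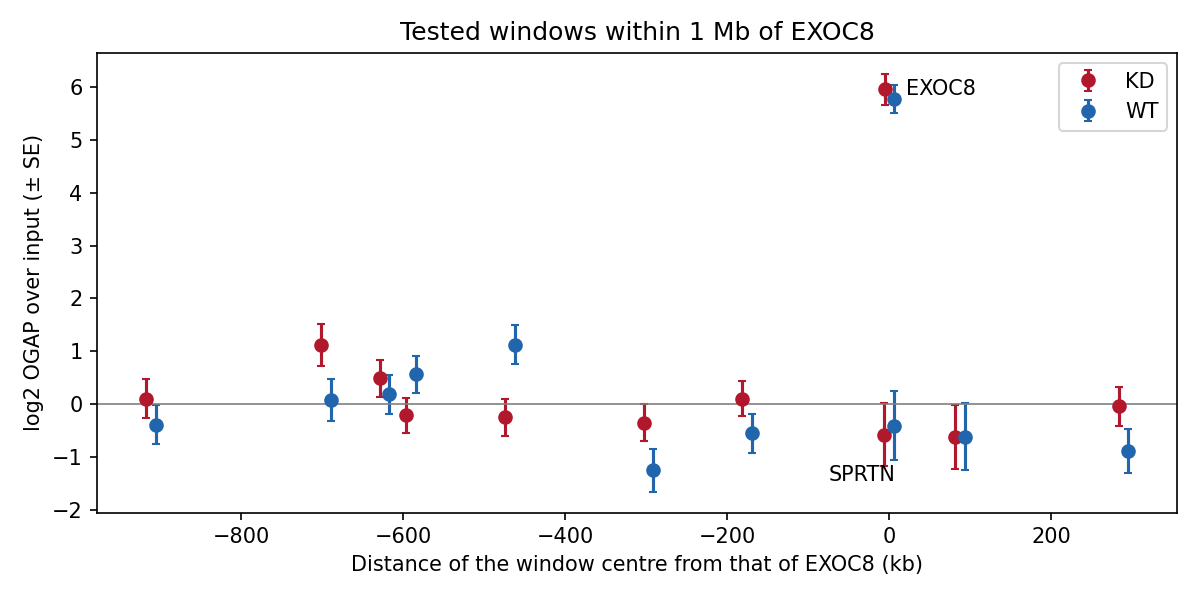
Log2 OGAP over input (± SE) of the 11 tested windows within 1 Mb of EXOC8, by distance of the window centre in kb, in KD and WT. EXOC8 lies near 6 in both states and every other window between -1.26 and 1.12.

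USP11 had the pattern over libraries most like that of EXOC8. Likeness was measured by the root mean square difference of log2 CPM over the 8 libraries, each window centred on its own mean, among 8005 named windows with a mean count of at least 30.5. The difference was 0.50 for USP11 (Pearson r = 0.996), 1.74 for DBF4B, whose protein switches on the CDC7 kinase (r = 0.961), and 2.01 for GSTA4, a glutathione transferase gene (r = 0.924). It was 2.03 for ATP5MGL (r = 0.973) and 2.10 for TEX46 (r = 0.886), against a median of 2.99 over all 8005. These coefficients describe 8 libraries that fall into pull-down and input, and 205 windows had an r above 0.9. In input libraries USP11 held 39 and 49 reads in KD and 77 and 55 in WT, and DBF4B held 59 and 56 in KD and 63 and 58 in WT.

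None of the tested windows of other exocyst genes rose in the pull-down. The list held 25 genes of exocyst subunits, paralogs, their GTPases and regulators; 18 had a named window and 17 passed the count filter. In KD none passed in either direction with edgeR (0 at an unadjusted p under 0.05, against 12.6% of all windows), with a median of -0.07 against 0.03 over all tested windows; the background was 0.63% higher and 0.105% lower. DESeq2, which gave an adjusted p for 6 of these windows in KD, called none. In WT 0 of 17 rose and 1 fell (6 at an unadjusted p under 0.05, against 28.5% of all windows), with a median of -0.28 against -0.02 over all windows, where 9.25% of windows were called higher and 4.45% lower. DESeq2 called none in WT. The window that fell was that of RALA, a RAL GTPase gene, at -1.32 ± 0.41 (adjusted p = 0.0207, edgeR). In KD it was at -0.28 ± 0.39. RALB, also a RAL GTPase gene, was at 0.20 ± 0.31 in KD and -0.004 ± 0.304 in WT. The RALA call was lost without WT input replicate 2, where no window of the list passed, and without WT OGAP replicate 1, where EXOC3 and RAB3IP fell instead; without WT OGAP replicate 2 RALA was at -2.83.

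Among the subunits, EXOC1 was at 0.01 ± 0.40 in KD and -0.96 ± 0.45 in WT, EXOC2 at -0.48 ± 0.36 and -0.99 ± 0.39, and EXOC3 at -0.49 ± 0.34 and -0.93 ± 0.37. EXOC4 was at 0.28 ± 0.42 in KD and 0.54 ± 0.42 in WT, and EXOC6B at -0.49 ± 0.38 and -0.28 ± 0.38. None of these passed. RAB3IP, which encodes an activator of RAB8, was at -0.34 ± 0.40 in KD and -1.28 ± 0.46 in WT (adjusted p = 0.0509, edgeR). The EXOC5 window, with 101 unshared bp, was under the count filter and held 3 and 4 reads in KD OGAP and 5 and 6 in WT OGAP, against 0 and 1 in KD input and 1 and 0 in WT input. Scaled by library totals, its OGAP reads were 9.21 times its input reads in KD (exact 95% counting interval 1.18 to 415) and 21.5 times in WT (3.13 to 927), each over a single input read. In a fit without the filter, EXOC5 was called higher in WT (adjusted p = 0.0386, edgeR) and not in KD (adjusted p = 0.471); DESeq2 did not call it in WT (adjusted p = 0.146). In KD against WT, none of the 17 passed with edgeR (called of all windows: 0.035% in OGAP, 0% in input, 0.00584% for the KD effect). At an unadjusted p under 0.05 there were 0 in OGAP (10.6% of all windows), 1 in input (4.41%) and 0 for the KD effect on OGAP over input (8.14%). DESeq2 called none where it gave an adjusted p, which in OGAP was for 6 windows.

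Genes that work with SPRTN on DNA-protein crosslinks and at stalled forks did not rise in either state with all 8 libraries. Of 29 genes listed, 21 had a named window and 14 passed the filter; the other 7, PCNA, TDP1, TDP2, POLH, MAD2L2, UBE2B and UFD1, overlapped neighbours and kept 0 to 242 unshared bp. In KD none of 14 passed with edgeR (4 at an unadjusted p under 0.05, against 12.6% of all windows; 0.736% of all windows were called), and DESeq2 gave an adjusted p for 0 of them; the list had a median of -0.37 against 0.03 over all windows. In WT 0 rose and 1 fell (3 at an unadjusted p under 0.05, against 28.5% of all windows), with a median of -0.53 against -0.02, where 9.25% of all windows were called higher and 4.45% lower. That window was TOP1, the gene of a topoisomerase that forms crosslinks with DNA, at -1.32 ± 0.38 in WT (adjusted p = 0.0125, edgeR) and -0.86 ± 0.35 in KD (adjusted p = 0.251). The call was lost without WT OGAP replicate 2 or WT input replicate 1.

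Translesion polymerase genes lay on both sides of 0. POLI was at 1.13 ± 0.42 in KD (adjusted p = 0.194, edgeR) and 1.01 ± 0.41 in WT (adjusted p = 0.0825). Without WT OGAP replicate 1 it was called higher in WT, at 1.39 (adjusted p = 0.0324). REV1 was at -0.83 ± 0.36 in KD and -0.55 ± 0.39 in WT, and REV3L at -0.56 ± 0.39 and -1.16 ± 0.43, and neither passed. In KD against WT, none of the 14 passed with edgeR in OGAP, in input or for the KD effect on OGAP over input. In each, 0 had an unadjusted p under 0.05. Of all windows, 0.035% were called in OGAP, 0% in input and 0.00584% for the KD effect. Such an unadjusted p was held by 10.6%, 4.41% and 8.14% of all windows. DESeq2 called none of the 14 in input or for the KD effect, and gave an adjusted p for 0 of the 14 in OGAP.

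**Figure D5:**
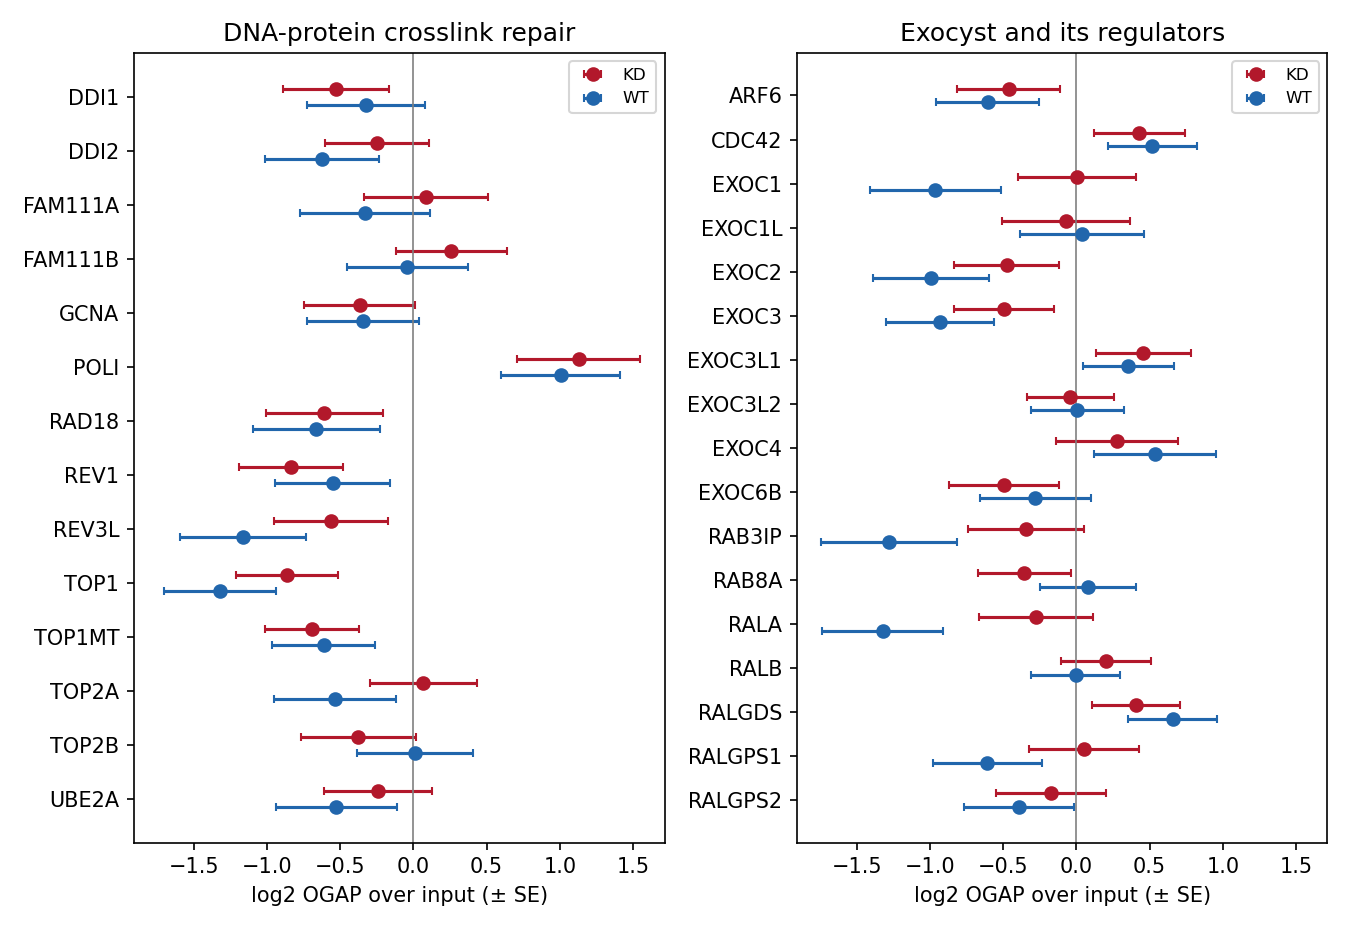
Log2 OGAP over input (± SE) of the 14 tested windows of the DNA-protein crosslink list and the 17 of the exocyst list, in KD and WT. All values lie between -1.32 and 1.13, where EXOC8 itself is at 5.96 in KD and 5.78 in WT.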

How the data were processed

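DNA of KD and WT RPE1 cells was measured by OGAP-seq in 4 groups of 2 libraries. The authors deposited whole-number read counts per 2001 bp promoter window for 19957 Ensembl genes; BWA 0.7.17-r1188, bedtools, featureCounts, MACS2 and build hg38 are named in the submitters' processing notes. No source used here states duplicate removal or read filters. Deposited metagene sums hold no value for single genes and were not used. Windows were named where the RefSeq (GRCh38.p14) start of exactly 1 protein-coding gene lay within 500 bp of the centre (15378 windows, 77.1%). Strand came from the RefSeq promoter table where it held the gene; otherwise the gene end matching the window's strand was taken as its start. The 452 windows without reads were not tested.

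The test was the quasi-likelihood test of edgeR 4.0.16 (R 4.3.3) after TMM and filterByExpr, with 4 group means over 8 libraries, which kept 17130 windows. Adjusted p-values are Benjamini-Hochberg values over these windows, with a threshold of 0.05. Each SE was taken as the size of the log2 change divided by root F, with 98.4 prior against 4 residual degrees of freedom, so it says little of a window's own libraries. Alternatives were other scalings, no filter, DESeq2 1.42.0, a replicate block, single libraries left out, fits of the compared libraries alone and, chosen after seeing the data, omission of mitochondrial windows and of single inputs from summed reads. The members, lists and motifs were chosen with earlier results of these data known. Named windows were both members, the nearest named neighbours, list members that passed or changed most, and the 5 windows most like EXOC8; the 3 opposite-strand pairs with the highest ratio were also named, and any other window was named after its values were seen.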

Additional observations from a re-analysis of the deposited data

How the results depend on the processing

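Replicate numbers did not pair the libraries: deviations from group means correlated at -0.04 to 0.02 between groups. With the replicate number as a block, EXOC8 was at 5.98 in KD and 5.80 in WT for OGAP over input, and at -0.77 for KD against WT in OGAP (adjusted p = 0.221, edgeR); no call of either gene changed. Other scalings, no filter, DESeq2 and omission of mitochondrial windows changed no sign, and no call of EXOC8 or SPRTN where an adjusted p was given. DESeq2 gave no adjusted p for SPRTN in OGAP over input in KD or in KD against WT in OGAP. For EXOC8 its SE was larger than that of edgeR. It was 0.53 in KD and 0.48 in WT for OGAP over input, and 0.45 for KD against WT in OGAP. With single libraries left out, EXOC8 ran from 5.91 to 5.99 in KD and from 5.19 to 6.72 in WT for OGAP over input, from -0.96 to -0.59 for KD against WT in OGAP, from -1.55 to -0.02 in input, and from -0.77 to 0.73 for the KD effect on OGAP over input. For SPRTN these ranges were -1.03 to -0.20, -0.72 to -0.05, -0.37 to 0.46, -0.0672 to 0.61 and -0.61 to 0.22. EXOC8 passed for KD against WT in OGAP without WT input replicate 2 (-0.82) and in the 4 OGAP libraries alone (-0.79); the cause was not tested. SPRTN fell under the filter in fits of the 4 OGAP or 4 WT libraries alone and has no value there.

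The list counts in WT, 1 each, were 2 with upper quartile scaling and with total promoter reads. For the exocyst list the count was 3 without a filter (18 windows tested; EXOC5 higher, RALA and RAB3IP lower), 2 with the replicate block, 2 without mitochondrial windows, 0 with DESeq2 and 0 to 2 with single libraries left out. For the crosslink list it was 0 to 2 with single libraries left out; without WT OGAP replicate 1, POLI was called higher and TOP1 lower. Apart from EXOC5 and POLI, each list window called in WT under any alternative was lower. The cause was not tested. EXOC8 ranked 6 by summed OGAP reads and 7 by reads per unshared base; per unshared base it ranked 7 of the 3741 overlapping windows and 4 of the 3214 with at least 1000 shared bases. The ratio of EXOC8 to SPRTN reads in input ran from 0.854 to 1.46 with single input libraries left out, alternatives chosen after seeing the data. SPRTN, with 6 to 20 reads per library, has wide intervals.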
